A study of Mus musculus with 24 samples.

Results

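B cell identity and receptor signalling were followed here as a set of 34 genes, out of 21671 genes with an expression value in every sample. The members were taken by name, from what is known of their proteins. They fall into 4 roles: 11 genes of the B cell receptor (BCR) and its first signalling steps (Cd79a, Cd79b, Lyn, Blk, Syk, Btk, Blnk, Plcg2, Bank1, Pik3ap1, Dok3), 12 surface receptors and co-receptors (Ms4a1, Cd22, Cr2, Fcer2a, Cd72, Cd37, Faim3, Fcrla, Fcrl1, Cd180, Ly86, Vpreb3), 7 transcription factors (Pax5, Ebf1, Bcl11a, Pou2af1, Pou2f2, Spib, Ikzf3) and 4 receptors of survival, costimulation and homing (Tnfrsf13c, Tnfrsf13b, Cd40, Cxcr5). All 34 passed the filter on low values in every comparison.

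The study profiled RNA from the spleens of mice 8 weeks of age on the C57/Bl6 strain, either mock-treated or 4 h after 7 Gy of whole-body ionizing radiation (IR). Spleen cells were separated on magnetic beads against B220, a B lineage isoform of CD45, into a bound B cell fraction and an unbound non-B cell fraction, after lysis of red cells. Each of the 4 combinations of fraction and treatment had 4 Trp53+/+ samples and 2 samples of Trp53-/- mice, which carry a germline knockout of p53, the transcription factor that DNA damage stabilises, so 24 samples fell into 8 groups. By T cell markers the fractions are enriched and not pure. Summed T cell markers were 180 to 204 RPKM in mock Trp53+/+ B cells and 683 to 1020.3 RPKM in non-B cells. Of the B cell sum, Cd2, which B cells also express, made up 98.0 RPKM on average. Cd3e, Cd3d, Cd3g and Cd4 had means of 4.83, 6.44, 4.58 and 8.14 RPKM in those B cells. Summed neutrophil markers were also lower in them, at 40.7 to 252 RPKM against 385 to 777 RPKM in non-B cells. Summed macrophage and monocyte markers were not lower, at 703 to 968 RPKM in mock Trp53+/+ B cells and 677 to 750 RPKM in non-B cells. A deletion of p53 in every cell of the animal does not tell the B cells' own p53 from that of their surroundings. The study's methods give 4 Trp53+/+ and 2 Trp53-/- mice for each condition, and which B and non-B samples shared a mouse is not given in the sources used here.

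The BCR is a membrane immunoglobulin whose signal passes through the paired chains encoded by Cd79a and Cd79b. Src-family kinases (Lyn, Blk) and Syk phosphorylate these chains and recruit Btk, the adaptor Blnk and the phospholipase Plcg2. Cr2 (CD21, a complement receptor) strengthens the signal, whereas Cd22 (a sialic acid-binding lectin) and Dok3 dampen it. Ebf1 and Pax5 commit lymphoid progenitors to the B lineage and Pax5 keeps mature B cells in it. Resting B cells of the spleen depend on BAFF, read by Tnfrsf13c (BAFF-R) and Tnfrsf13b (TACI), and find the follicle through Cxcr5.

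Values are reads per kilobase of exon per M exon reads (RPKM, with M for mega) as the authors deposited them. The estimated depth was 4.625 to 10.91 M exon reads per sample. The knockout was checked through p53 targets as well as Trp53 itself, whose RPKM was 44.8 to 47.9 in mock Trp53+/+ B cells and 21.6 and 21.7 in mock Trp53-/- B cells. Cdkn1a, the p53 target p21, went from 0.893 to 1.36 RPKM in mock to 82.3 to 97.8 RPKM in irradiated Trp53+/+ B cells, and was 0.562 and 0.726 RPKM in irradiated Trp53-/- B cells. Libraries stood apart in their reads on 1379 olfactory and vomeronasal receptor genes, which spleen cells are not known to use. Out of 1409 such genes, these were the ones with RPKM of at most 1 in every mock library, so the set was filtered on mock values. Between 3.55% and 7.11% of these genes had a value above 0 in the mock libraries and 4.79% to 11.2% in the irradiated Trp53-/- libraries, against 35.4%, 46.3%, 5.0% and 14.0% in irradiated Trp53+/+ B cells (replicates 1 to 4) and 23.1%, 6.53%, 50.2% and 34.5% in irradiated Trp53+/+ non-B cells. The 5 libraries above 20% were left out in a separate fit, whose results are given below. That fit leaves replicate 2 alone of the irradiated Trp53+/+ non-B libraries.

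A limit on high values bears on every member. The authors kept 1 read of each set of duplicated reads, and if that allows at most 1 read per start position and strand, a gene can hold no more than 2000 reads per kilobase. The RPKM that this corresponds to is lower in deeper libraries: it was 196 to 267 in mock and 263 to 432 in irradiated Trp53+/+ B cell libraries. In all 24 libraries the gene with most reads per kilobase had between 1422 and 1914 of them, under the limit of 2000. The members sat high on this scale: they used a median of 43.8% of their start positions in mock Trp53+/+ B cells (24.4% for Pik3ap1 to 80.4% for Cd79b, 11 members over 50%) and a median of 23.5% after IR (1 member over 50%). RPKM values as deposited therefore stand below beside values corrected for shared start positions, a correction chosen after the data were seen, which rests on that assumption and on the estimated depths.

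**Figure D1:**
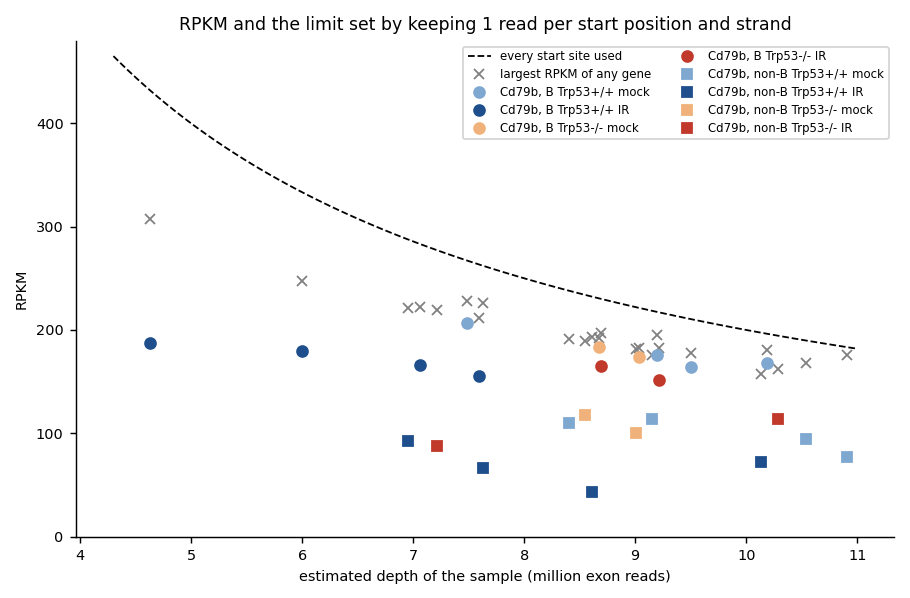
Estimated depth of each of the 24 libraries (x axis, 4.625 to 10.91 M exon reads) against RPKM (y axis), with crosses for the gene of highest RPKM in the library, Cd79b as circles (B cells) and squares (non-B cells) coloured by genotype and treatment, and a dashed curve for 2000 reads per kilobase. Every cross lies under the curve, and Cd79b in the 4 mock Trp53+/+ B cell libraries uses 80.4% of the limit on average.

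Before irradiation the members were all expressed well above the floor in Trp53+/+ B cells, from 53.6 RPKM for Pik3ap1 (an adaptor of PI3 kinase) to 179 RPKM for Cd79b, with a median of 96.8 RPKM. Cd79b stood at 168, 175, 207 and 164 RPKM in the 4 mock samples and Cd79a at 129, 137, 148 and 131 RPKM, so the ranges of the 2 signalling chains did not overlap. Below them lay Faim3 (the Fc receptor for IgM) at 123 RPKM, Cd37 (a tetraspanin) at 121 RPKM and Pou2af1 (the OCA-B coactivator) at 121 RPKM, whose order was within their spread. At the low end Btk, Tnfrsf13b, Vpreb3 and Pou2f2 lay at 50.7 to 57.0, 52.2 to 59.1, 53.1 to 66.1 and a mean of 58.3 RPKM, and could not be ordered either.

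IR against mock in Trp53+/+ B cells asked which of these genes change within 4 h of damage. Of the 34 members, 9 fell and 0 rose, where a call needed an adjusted p below 0.05 and a log2 fold change of more than 0.58 in size, in limma on log2(RPKM + 0.5) with p-values adjusted over all 13821 genes tested. Among all those genes 12.2% fell and 12.5% rose by the same rule, so the members' 26.5% that fell lay above and their 0% that rose below the background. At an unadjusted p under 0.05 in either direction there were 21 of 34 members, 3 higher and 18 lower, against 57.3% of all genes. The median log2 fold change was -0.17 over the members and 0.01 over all genes. Without replicates 1 and 2 of the irradiated group, which had reads on many receptor genes, 10 members fell and 0 rose. In bulk RNA, fewer cells of a kind and less RNA per cell cannot be told apart.

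Among the 12 surface receptors 4 fell, led by Vpreb3, a relative of the surrogate light chain that binds immunoglobulin chains inside B cells. Vpreb3 measured 57.3, 54.6, 53.1 and 66.1 RPKM in the mock samples and 15.3, 14.9, 18.4 and 22.3 RPKM after IR. The highest irradiated sample was far below the lowest mock sample, and the log2 fold change was -1.69 (SE 0.11, adjusted p 1.74e-07), a 3.23-fold fall on the log2(RPKM + 0.5) scale. Cd180 (RP105), a Toll-like receptor homologue that acts on B cells, measured 81.3, 81.6, 84.5 and 80.2 RPKM and then 40.6, 34.7, 32.7 and 38.0 RPKM. The groups were again apart and Cd180 fell 2.23-fold (log2 fold change -1.16, SE 0.07, adjusted p 7.41e-08). Its partner on the membrane, Ly86 (MD-1), had means of 92.9 and 89.3 RPKM and a log2 fold change of -0.05 (SE 0.12), and the difference between the genes was not tested. Fcrla, an intracellular Fc receptor-like protein, was at 92.9, 94.9, 108 and 91.4 RPKM and then at 59.8, 55.9, 67.1 and 68.9 RPKM, without overlap (log2 fold change -0.62). Cd22 was at 108, 117, 127 and 112 RPKM and then at 83.4, 76.7, 67.7 and 76.6 RPKM, also without overlap (log2 fold change -0.61).

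The promoters of Vpreb3 and Cd180, whose falls were the deepest, and of Cd22, which also fell in the non-B fraction, are shown to place the genes and the binding motifs of B cell factors near their starts. RefSeq promoters of GRCm38.p6, 250 bases before to 50 after the start of transcription, were matched for 27 of the 34 members, which had 32 promoters. The octamer ATGCAAAT (ATTTGCAT on the other strand), read by Oct factors such as Pou2f2 together with Pou2af1, lay in 2 of these 32 promoters (Blnk and Vpreb3) and in 1.74% of all 32851 promoters. A palindrome of TCCC, any 2 bases and GGGA, read by Ebf1, lay in 1 of 32 (Cd22) and in 0.904% of all. The Ets motif GAGGAAGT, read by Spib and its relative PU.1, lay in 3 of 32 (Cd37, Cd72 and Fcrl1) and in 3.20% of all, both strands being searched each time, and the p53 response element without spacer lay in 0 of 32 and in 0.00913% of all. The 3 promoters are printed 5′ to 3′ in lower case with such matches in capitals: the octamer of Vpreb3 lies 45 to 38 bases before the start and the palindrome of Cd22 lies 49 to 40 bases before it, while Cd180 has none of the 4 motifs in this window.
Vpreb3, chr10:75948050-75948349, plus strand: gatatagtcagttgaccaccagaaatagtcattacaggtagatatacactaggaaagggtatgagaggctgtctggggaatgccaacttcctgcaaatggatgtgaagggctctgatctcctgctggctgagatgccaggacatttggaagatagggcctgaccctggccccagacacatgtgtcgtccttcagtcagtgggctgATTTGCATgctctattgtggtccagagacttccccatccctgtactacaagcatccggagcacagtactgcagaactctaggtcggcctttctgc
Cd180, chr13:102693297-102693596, plus strand: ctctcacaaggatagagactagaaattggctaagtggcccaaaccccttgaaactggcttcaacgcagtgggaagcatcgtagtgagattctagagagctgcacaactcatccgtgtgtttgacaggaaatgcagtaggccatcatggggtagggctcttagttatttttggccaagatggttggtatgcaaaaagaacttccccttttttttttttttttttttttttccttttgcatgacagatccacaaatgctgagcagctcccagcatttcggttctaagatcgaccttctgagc
Cd22, chr7:30878979-30879278, minus strand: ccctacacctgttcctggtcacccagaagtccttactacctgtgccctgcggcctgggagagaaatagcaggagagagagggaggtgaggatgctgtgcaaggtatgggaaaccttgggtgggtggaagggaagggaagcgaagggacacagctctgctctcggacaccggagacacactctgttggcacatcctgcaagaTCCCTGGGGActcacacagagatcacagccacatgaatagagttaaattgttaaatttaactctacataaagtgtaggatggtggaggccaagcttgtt

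The other 8 surface genes were not called. Cr2 (log2 fold change -0.49), Cd72 (an inhibitory lectin, -0.35) and Faim3 (-0.28, adjusted p 0.0364) were lower past the adjusted p and within the fold threshold. Fcer2a (CD23, the low-affinity IgE receptor) was higher in the same sense: it measured 112, 119, 122 and 115 RPKM in mock and 158, 165, 149.7 and 147 RPKM after IR, a log2 fold change of 0.41 (adjusted p 8.45e-05). Its irradiated samples all exceeded its mock samples while those of Cr2, which is highest on marginal zone B cells, lay below all of its mock samples. Ms4a1 (CD20) and Cd37 had log2 fold changes of -0.05 and -0.01.

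Of the 11 genes of the BCR and its first signalling steps 3 fell, a kinase of each of 2 families and an inhibitory adaptor. Blk, a Src-family kinase, measured 92.5, 97.7, 106 and 91.6 RPKM in mock and 57.7, 52.9, 54.2 and 61.5 RPKM after IR (log2 fold change -0.77, SE 0.07, adjusted p 1.21e-06). Dok3, an adaptor that dampens BCR signalling, measured 90.8, 91.7, 96.5 and 92.6 RPKM and then 53.3, 47.3, 52.3 and 68.3 RPKM (log2 fold change -0.76, SE 0.09, adjusted p 2.55e-05). Btk, the Tec-family kinase that is mutated in X-linked agammaglobulinaemia, measured 50.7, 57.0, 57.0 and 56.2 RPKM and then 33.8, 31.9, 34.2 and 37.4 RPKM (log2 fold change -0.68, SE 0.06, adjusted p 1.68e-06). In each of these 3 genes every irradiated sample lay below every mock sample. Bank1, a scaffold between Lyn and calcium release, stopped just short of the fold threshold at 101, 110.3, 122 and 102 RPKM in mock and 74.9, 71.8, 69.3 and 75.1 RPKM after IR (log2 fold change -0.57, adjusted p 2.00e-05).

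The receptor chains themselves showed no call in the deposited values. Cd79a went from 129, 137, 148 and 131 RPKM to 134, 139.9, 112 and 114 RPKM and Cd79b from 168, 175, 207 and 164 RPKM to 179, 187, 166 and 156 RPKM. The ranges of mock and irradiated samples overlapped for both genes, and the log2 fold changes were -0.13 (SE 0.08, adjusted p 0.218) and -0.05 (SE 0.09, adjusted p 0.638). Corrected for shared start positions they were -0.42 (SE 0.08) and -0.55 (SE 0.08), below the fold threshold, with an adjusted p of 1.38e-04 for Cd79b, whose adjusted p ranged from 9.05e-05 to 0.97 over the alternatives. The irradiated libraries 1 and 2 were also the shallowest of this group and the ones with reads on many receptor genes, and the members' median level in them was 92.5% and 95.1% of the mock mean, against 79.0% and 79.8% in replicates 3 and 4. With the mean RPKM of the receptor genes (as log2, 0.001 added) as a covariate 10 members fell and 0 rose and the median was -0.45. Dok3 (-0.56) and Fcrla (-0.36) were no longer called, and Cr2 (-0.58), Ebf1 (-0.67) and Plcg2 (-0.71) were. The part of depth was not tested. Syk had a log2 fold change of -0.03 and Lyn, whose samples went from 94.4, 101, 108 and 92.0 RPKM to 91.3, 100.3, 79.7 and 75.4 RPKM, overlapped between groups.

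**Figure D2:**
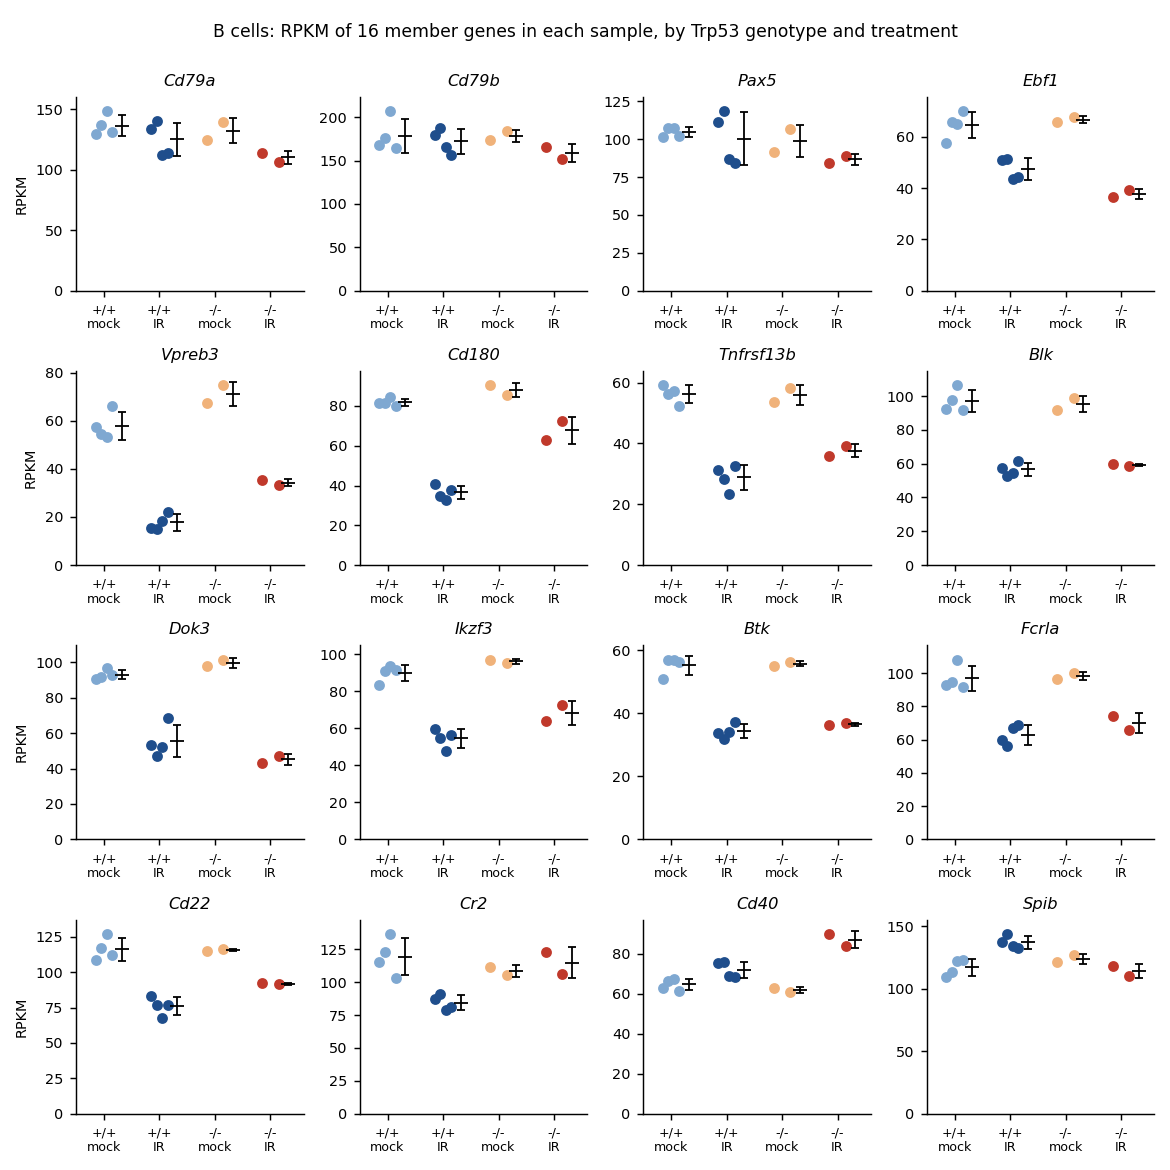
RPKM (y axis, from 0) of 16 members, 1 panel each, in every B cell sample of the 4 groups (x axis: Trp53+/+ mock, Trp53+/+ IR, Trp53-/- mock, Trp53-/- IR), with points for samples and bars for mean and SD. Irradiated samples of Vpreb3, Cd180, Blk, Dok3 and Btk lie below all mock samples of the same genotype, while those of Cd79b overlap them in Trp53+/+ B cells.

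Of the 7 transcription factors 1 fell. Ikzf3 (Aiolos), an Ikaros-family zinc finger protein, measured 83.3, 90.7, 93.3 and 91.6 RPKM in mock and 59.4, 54.5, 47.5 and 56.5 RPKM after IR, with no overlap (log2 fold change -0.72, SE 0.07, adjusted p 6.14e-06). The commitment factors differed from each other in their values. Ebf1 went from 57.7, 65.9, 64.9 and 70.1 RPKM to 51.0, 51.3, 43.5 and 44.2 RPKM, with no overlap but a log2 fold change of -0.44 (adjusted p 3.59e-04) that lay within the fold threshold. Pax5 went from 101, 107, 108 and 102 RPKM to 112, 118, 87.0 and 84.2 RPKM, so that replicates 1 and 2 lay above and replicates 3 and 4 below all mock samples (log2 fold change -0.08, SE 0.10, adjusted p 0.560). Spib, the Ets factor, was at 109, 114, 123 and 123 RPKM and then at 138, 144, 134 and 133 RPKM, a log2 fold change of 0.23 (adjusted p 0.00671) within the fold threshold. Of the 4 receptors of survival and homing, Tnfrsf13b fell from 59.1, 56.3, 57.2 and 52.2 RPKM to 31.1, 28.3, 23.3 and 32.7 RPKM (log2 fold change -0.96, SE 0.09, adjusted p 3.26e-06). Its companion Tnfrsf13c, the receptor for BAFF alone, had means of 96.7 and 87.6 RPKM, and Cxcr5 (the CXCL13 receptor) of 117 and 133 RPKM.

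The calls rested on different margins. Leaving out each of the 12 libraries in turn kept Vpreb3, Cd180, Tnfrsf13b, Blk, Dok3, Ikzf3 and Btk called in 12 of 12 fits and Fcrla and Cd22 in 10 of 12. With no fold threshold 19 members passed the adjusted p, 3 higher (Fcer2a, Spib and Cd40) and 16 lower, against 25.4% and 25.8% of all genes. With the start-site correction the median over the members was -0.43 and 11 fell, Bank1 (-0.84) and Cr2 (-0.80) joining, against 13.6% of all genes that fell by the same rule and a median of -0.02 over all genes.

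Markers of other cells moved in the same comparison. Of 10 erythroid markers 7 fell in Trp53+/+ B cells (Car1, carbonic anhydrase 1, by 3.31 on the log2 scale), against 12.2% of all genes. The summed RPKM of these markers went from 76.7 to 155 in mock to 39.5 to 53.1 after IR, with none at 0. Summed T cell markers (15 genes, none at 0 throughout a group) went from 180 to 204 RPKM to 97.0 to 168 RPKM, most of it from Cd2 (98.0 to 32.8 RPKM), which B cells also express. Macrophage and monocyte markers (14 genes) overlapped at 703 to 968 RPKM and 577 to 852 RPKM. Their part in the members' falls was not tested.

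The same comparison in Trp53-/- B cells, from 2 against 2 samples, asked how much of this needs p53. Of the 34 members 5 (14.7%) fell and 0 rose, against 11.2% of all genes that fell and 13.1% that rose. The share that fell was thus near the background and the share that rose lay below it. The median was -0.24 over the members and 0.02 over all genes. The 5 were Dok3 (log2 fold change -1.14, SE 0.13, adjusted p 3.24e-05), Vpreb3 (-1.05, SE 0.16), Ebf1 (-0.81, SE 0.11), Blk (-0.68, SE 0.09) and Btk (-0.60, SE 0.08). All 5 were called in 12 of 12 fits that left out a library.

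Vpreb3 measured 67.6 and 74.8 RPKM in mock and 35.2 and 33.1 RPKM in irradiated Trp53-/- B cells, and Dok3 97.8 and 102 RPKM and then 42.9 and 47.3 RPKM. Ebf1 went from 65.8 and 67.7 RPKM to 36.4 and 39.2 RPKM, Blk from 91.8 and 98.8 RPKM to 59.8 and 58.7 RPKM, and Btk from 55.1 and 56.3 RPKM to 36.2 and 36.9 RPKM. These genes of the receptor cascade and of B cell commitment were thus lower in both irradiated samples without p53. Cd79a, at 125 and 139.6 RPKM and then 114 and 106 RPKM, Cd79b, at 174 and 184 RPKM and then 166 and 151 RPKM, and Pax5, at 91.3 and 106 RPKM and then 84.2 and 89.1 RPKM, were not called. Cd40, the receptor for T cell help, was at 63.1 and 60.9 RPKM and then at 89.9 and 83.9 RPKM (log2 fold change 0.48, adjusted p 5.17e-04), which lay within the fold threshold as deposited and past it when corrected for start sites (0.60).

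Whether a response differs between genotypes was tested directly, as the Trp53+/+ change minus the Trp53-/- change, called at an adjusted p under 0.05. Of the 34 members 5 (14.7%) differed, 1 higher and 4 lower, against 18.8% of all genes. By direction 2.9% of the members were higher and 11.8% lower, against 8.14% and 10.6% of all genes, so the share that was lower was near the background. Cd180 differed most: it fell to 36.5 RPKM from 81.9 RPKM on average with p53, and measured 90.4 and 85.7 RPKM and then 62.9 and 72.6 RPKM without it. The difference of the log2 fold changes was -0.78 (SE 0.12, adjusted p 0.00119) and was called in 12 of 12 fits that left out a library. Cr2 went from 115, 123, 137 and 103 RPKM to 87.5, 90.7, 78.6 and 81.1 RPKM with p53, and from 112 and 105 RPKM to 123 and 106 RPKM without it (difference -0.57, SE 0.15, adjusted p 0.0224). The irradiated samples of Cr2 lay below all mock samples with p53 and overlapped them without it, and the difference was called in 9 of 12 such fits.

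The remaining 3 differences were less stable. Spib, whose irradiated samples lay above all mock samples with p53, was at 121 and 127 RPKM in mock and 118 and 110.2 RPKM in irradiated Trp53-/- B cells (difference 0.35, SE 0.10, adjusted p 0.0359, called in 5 of 12 fits without a library). Cd40 differed by -0.33 (SE 0.10, adjusted p 0.0370, 4 of 12) and Vpreb3 by -0.64 (SE 0.20, adjusted p 0.0406, 3 of 12). The count of 5 became 1 without mock Trp53-/- replicate 1 or 2 or irradiated Trp53-/- replicate 1, and 2 without mock Trp53+/+ replicate 1 or 2. It was 3 without irradiated Trp53-/- replicate 2 or irradiated Trp53+/+ replicate 1, and 4 without the irradiated Trp53+/+ replicates 1 and 2, which had many receptor reads. Ebf1 (0.37, adjusted p 0.0663) and Dok3 (0.38, adjusted p 0.119), whose falls were numerically deeper without p53, did not pass. With the start-site correction 0 members were higher and 6 lower, against 7.74% and 12.6% of all genes, Spib (0.27) no longer passing and Cd22 (-0.47) and Tnfrsf13c (-0.37) joining Cd180 (-0.93), Cr2 (-0.91), Cd40 (-0.51) and Vpreb3 (-0.67).

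**Figure D3:**
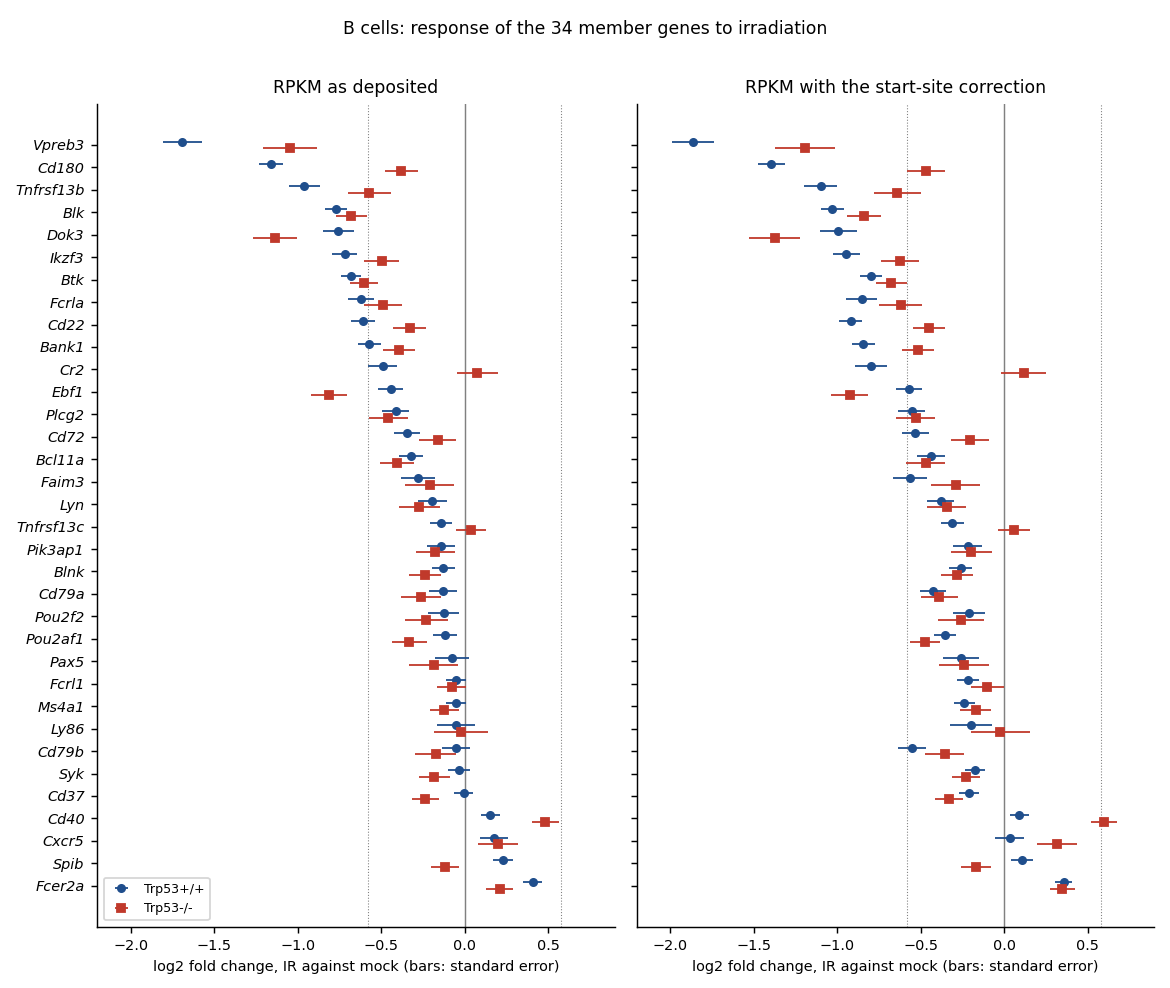
Log2 fold change of IR against mock (x axis, points with bars of 1 SE) for each of the 34 members (y axis) in Trp53+/+ and Trp53-/- B cells, from deposited RPKM (left) and from RPKM corrected for shared start positions (right), with dotted lines at -0.58 and 0.58. Vpreb3 and Cd180 lie farthest left with p53, Dok3 and Vpreb3 without it, and the corrected points shift to the left for highly expressed members such as Cd79b (-0.05 and -0.55 with p53).

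Without irradiation the genotypes were not told apart by any member. In mock B cells 0 of 34 members differed between Trp53-/- and Trp53+/+, against 0.0506% of all genes, with log2 fold changes from -0.18 for Blnk to 0.30 for Vpreb3 and 0 members at an unadjusted p under 0.05 (4.26% of all genes). In mock non-B cells 0 of 34 differed, against 0.0428% of all genes, from -0.37 for Dok3 to 0.25 for Ikzf3, again with 0 members at an unadjusted p under 0.05 (5.03% of all genes). Both are limma tests with 2 Trp53-/- samples.

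The unbound fraction carried the members too. In mock samples of Trp53+/+ mice all 34 members were higher in B than in non-B cells, against 7.38% of all 14598 genes tested, by log2 fold changes from 0.60 (Lyn) to 1.83 (Ebf1) with a median of 1.19. Because the fractions were separated on a B lineage marker and the members were chosen as B cell genes, this checks the labels and the sort. The non-B mean was nevertheless 44.3% of the B mean at the median member, from 28.6% for Ebf1 and 29.9% for Vpreb3 to 64.7% for Pou2f2 and 65.9% for Lyn. Lyn, Syk (60.7%), Plcg2 (60.2%) and Dok3 (61.4%) also work in myeloid cells, whereas Ebf1 and Pax5 (36.4%) are restricted to the B lineage among spleen cells. Other members went the other way: the receptor chain Cd79a stood at 53.7% and Btk, also made by myeloid cells, at 45.0%. With the start-site correction these 2 shares were close, at 42.75% and 41.7%. The part of myeloid cells in these shares was not tested. For Cd79b the share was 55.4% as deposited, and with the start-site correction the median share over the members was 35.9% and the B against non-B log2 fold change of Cd79b moved from 0.86 to 1.44.

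**Figure D4:**
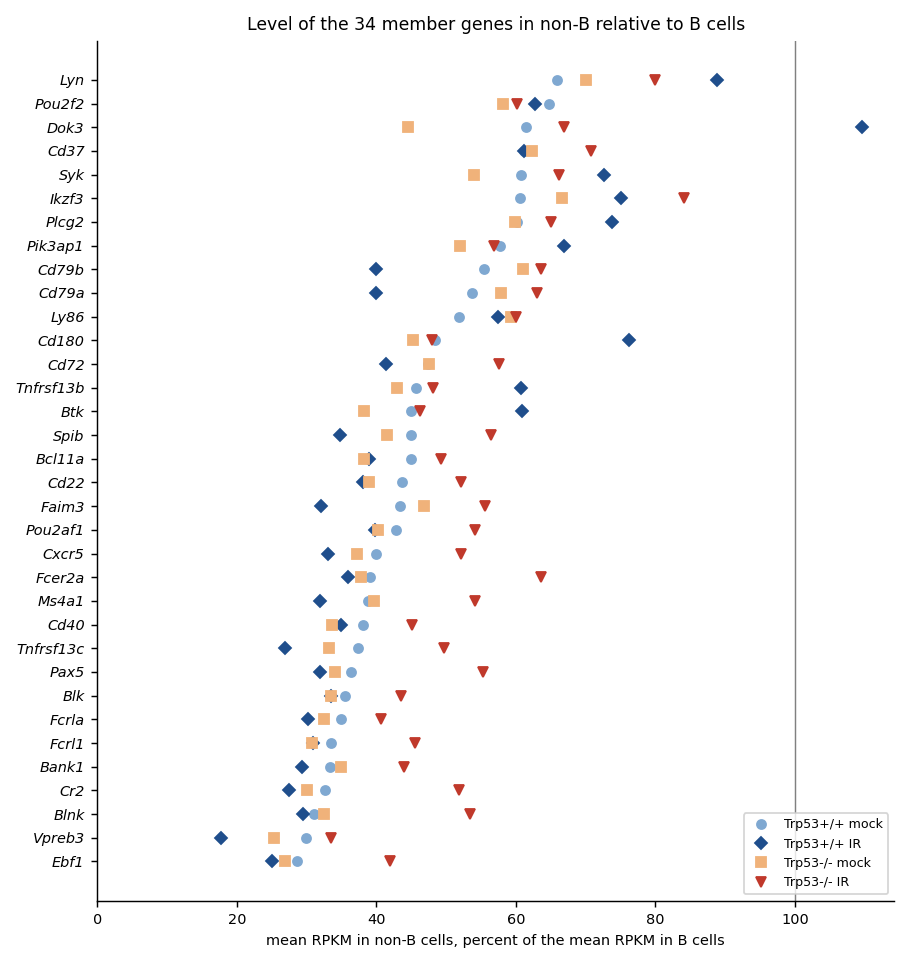
Non-B mean as a percent of the B mean (x axis) for each of the 34 members (y axis) in Trp53+/+ mock, Trp53+/+ IR, Trp53-/- mock and Trp53-/- IR samples. The medians are 44.3%, 38.5%, 40.0% and 54.1%, and Dok3 in irradiated Trp53+/+ samples lies at 109.7%.

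In irradiated Trp53+/+ non-B cells 3 members (8.8%) fell and 0 rose, against 4.11% of all 14018 genes tested that fell and 5.74% that rose. The median log2 fold change was -0.34 over the members and -0.03 over all genes. Vpreb3 measured 9.76, 14.3, 21.6 and 23.5 RPKM in mock and 3.20, 3.27, 2.85 and 3.23 RPKM after IR (log2 fold change -2.21, SE 0.31, adjusted p 8.35e-04). Its irradiated samples were nearly level while its mock samples spread widely. Blk went from 25.9, 35.1, 37.1 and 39.6 RPKM to 15.6, 26.0, 11.3 and 23.0 RPKM (log2 fold change -0.90, SE 0.27, adjusted p 0.0375), with 1 irradiated sample above the lowest mock sample. Cd22 went from 36.0, 51.2, 56.7 and 59.1 RPKM to 25.6, 34.8, 22.2 and 33.4 RPKM (log2 fold change -0.79, SE 0.19, adjusted p 0.0156), without overlap. Cd79a, at 53.4, 69.8, 83.6 and 85.6 RPKM and then 51.7, 66.6, 31.9 and 49.5 RPKM, and Cd79b, at 77.5, 94.8, 110.3 and 114 RPKM and then 66.7, 92.8, 43.3 and 71.8 RPKM, overlapped between groups (log2 fold changes -0.57 and -0.56). Pax5 overlapped as well, at 22.7, 36.6, 43.0 and 49.8 RPKM and then 31.5, 39.5, 21.8 and 35.3 RPKM, and so did Ebf1, at 10.6, 19.4, 22.7 and 21.2 RPKM and then 9.94, 15.3, 6.51 and 15.8 RPKM.

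Libraries of this fraction differed in how much of the whole set they held. The median member stood at 77.8%, 102%, 107% and 111% of the mock Trp53+/+ mean in the 4 mock libraries and at 75.1%, 101%, 53.9% and 82.5% in the 4 irradiated ones. Vpreb3 was lower than the set in every irradiated library, at 18.5%, 18.9%, 16.5% and 18.7% of its mock mean, and was the lowest of the 34 members in each. The library at 53.9% was also the one with 50.2% of receptor genes above 0. Without the 3 irradiated libraries with reads on many receptor genes, which leaves 1 irradiated library that is assumed to vary like the other groups, 0 members were called and the median was 0.03, while Vpreb3, Cd22 and Blk had log2 fold changes of -2.16, -0.51 and -0.38. With the log2 mean RPKM of the receptor genes as a covariate 0 were called and the median was 0.17, Vpreb3 being at -1.99. The count was 9 without mock replicate 1, 10 without irradiated replicate 2 and 7 without irradiated replicate 4, so it depended on single libraries, whereas Vpreb3 and Cd22 were called in 12 of 12 such fits and Blk in 7. Erythroid markers fell here too (7 of 10 genes, against 4.11% of all genes, summed RPKM 168 to 482 and then 41.9 to 131), T cell markers overlapped (683 to 1020.3 RPKM and 558 to 755 RPKM), and their part was not tested.

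**Figure D5:**
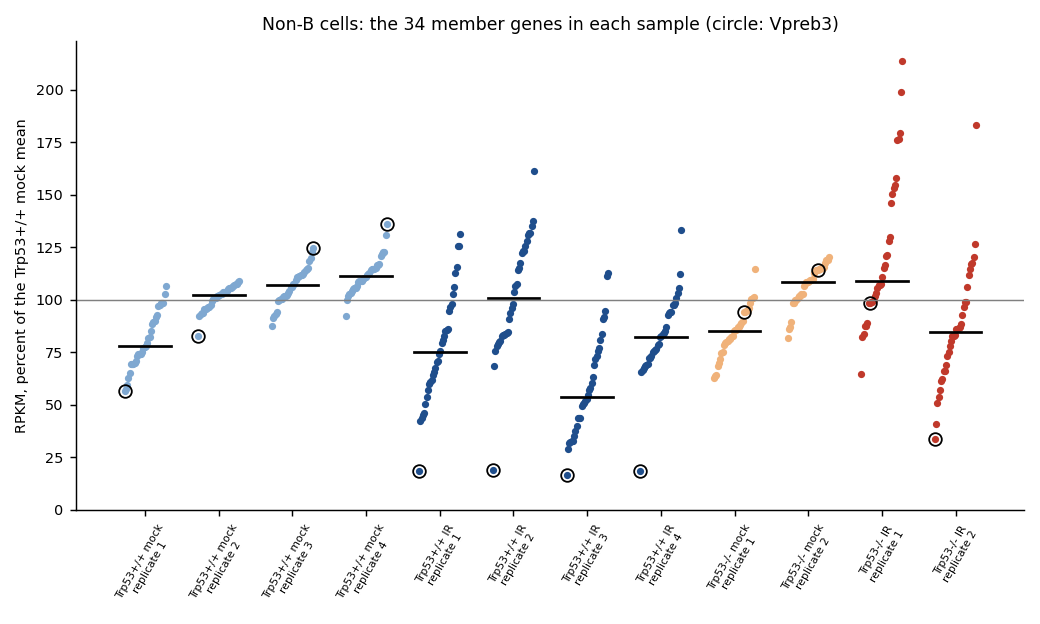
Level of each of the 34 members in each of the 12 non-B libraries (x axis, grouped by genotype and treatment) as a percent of its mean in mock Trp53+/+ non-B cells (y axis), with a black line for the median member and a circle for Vpreb3. The medians of irradiated Trp53+/+ libraries run from 53.9% to 101%, and Vpreb3 lies between 16.5% and 18.9% in all 4.

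In Trp53-/- non-B cells 0 of 34 members were called after IR, against 0.442% of all genes. At an unadjusted p under 0.05 there were 4 members, all higher, against 15.8% of all genes. Vpreb3 measured 16.3 and 19.8 RPKM in mock and 17.0 and 5.85 RPKM after IR, so its samples disagreed with each other. The test of the genotype difference called 0 of 34 members in non-B cells, against 7.35% of all genes, the smallest adjusted p being 0.0525 for Cr2 (-1.66). Cr2 was at 28.8, 42.5, 41.3 and 43.1 RPKM and then 18.0, 32.5, 12.4 and 29.9 RPKM with p53, and at 33.2 and 31.9 RPKM and then 69.8 and 49.3 RPKM without it. The irradiated samples of Cr2 overlapped mock with p53 and both lay above mock without it, and the difference stopped short of the threshold.

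After IR 27 of the 34 members were higher in Trp53+/+ B than non-B cells, against 15.3% of all genes, Vpreb3 by 2.31. The 7 that were not were Dok3 (-0.11), Lyn (0.17), Ikzf3 (0.41), Cd180 (0.41), Plcg2 (0.44), Syk (0.47) and Pik3ap1 (0.58, just inside the threshold). Leaving out the irradiated libraries with many receptor reads leaves replicate 2 alone of the irradiated non-B group, so no count is given for that fit. The test of whether the response differs between the fractions called 4 members, 0 higher and 4 lower in B cells, which is 11.8% of them against 28.0% of all genes. Dok3 differed most (difference -0.81, SE 0.20, adjusted p 0.00758): it fell in B cells and was at 58.7, 60.7, 50.04 and 58.6 RPKM and then 71.7, 75.1, 52.5 and 43.2 RPKM in non-B cells. Btk was at 24.5, 26.7, 25.2 and 22.9 RPKM and then 20.04, 24.3, 18.2 and 20.9 RPKM in non-B cells (difference -0.43, SE 0.12, adjusted p 0.0122). Cd180 was at 36.7, 41.0, 39.5 and 41.2 RPKM and then 24.4, 38.1, 21.7 and 27.1 RPKM in non-B cells (difference -0.63, SE 0.17, adjusted p 0.0129). The non-B log2 fold changes of the 3, whose proteins are also made by myeloid cells, were 0.06, -0.25 and -0.53. The 3 differences were called in 16 of 16 fits that left out a library, and that of Lyn (-0.42, SE 0.15, adjusted p 0.0391) in 7 of 16. For the same reason no count of these differences is given without the 5 libraries with many receptor reads.

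Other genes of the pathway, from a list of 40 further BCR components, gave 1 rise and 8 falls in Trp53+/+ B cells and 0 rises and 10 falls in Trp53-/- B cells, with medians of -0.26 and -0.38. Among all genes 12.5% rose and 12.2% fell with p53 and 13.1% rose and 11.2% fell without it, so the share of the list that rose lay below the background. The largest falls with p53 were Sh3bp2 (an adaptor, 43.4 to 21.0 RPKM, -1.03), Lat2 (the adaptor NTAL, -0.91), Cd38 (an ectoenzyme, 76.1 to 41.3 RPKM, -0.88) and Stim1 (the calcium store sensor, -0.84), and the rise was Ptpn22 (a phosphatase, 0.75). Among the falls without p53 were Stim1 (-1.21), Pirb (an inhibitory receptor, -1.05), Itpr2 (a calcium release channel, -1.04) and Sh3bp2 (-0.96). Stim1 and Sh3bp2 were thus called lower in each genotype. In Trp53+/+ non-B cells 0 rose and 1 fell, Siglecg (-0.69), an inhibitory lectin like Cd22, against 5.74% and 4.11% of all genes.

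Of 20 further transcription factors of B cells 2 rose and 4 fell in Trp53+/+ B cells and 1 rose and 6 fell in Trp53-/- B cells, to be read against the same shares of all genes. Mef2b (a MADS-box factor of activated B cells) rose from 4.81 to 42.1 RPKM with p53 (log2 fold change 3.05), and also rose without it (1.44). Klf2, which keeps B cells in the follicular state, fell from 63.5 to 24.8 RPKM (-1.34) with p53 and by 1.92 without it. Bach2, a repressor that holds back plasma cell fate, fell from 49.5 to 22.7 RPKM (-1.11) with p53 and by 1.83 without it, and Id3 (-0.91 and -1.03) and Runx1 (-0.68 and -1.55) also fell in each genotype. In Trp53+/+ non-B cells 1 rose (Mef2b, 2.23) and 2 fell (Id3, -1.09, and Tcf3, -0.64).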

How the data were processed

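The 24 libraries measured RNA from splenic B and non-B fractions. Per the study's methods, total RNA was depleted of ribosomal RNA, bases of low quality were masked, reads were aligned to mm9 with TopHat, 1 read of each duplicated set was kept, and reads were assigned to UCSC genes with featureCounts (the submitters' processing notes name TopHat2 2.0.8 and featureCounts 1.4.5). The authors deposited RPKM values with exon reads as the total. Depth was estimated from the steps between low RPKM values (58.9% to 72.9% of them lay within 0.1 of a whole read), so it is approximate.

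Groups came from the labels. Genes with RPKM above 1 in at least 1 Trp53+/+ sample of a fit were tested on log2(RPKM + 0.5) with limma 3.58.1 (R 4.3.3, group means, mean-variance trend) and Benjamini-Hochberg adjustment over all genes. The 12 B, the 12 non-B and the 16 Trp53+/+ libraries made 1 fit each. Calls needed an adjusted p below 0.05 and a log2 fold change of more than 0.58 in size, and differences of responses the adjusted p alone. The study's count test could not be run on RPKM values. The steps were tested on simulated data.

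Members, gene lists and tests were chosen with earlier results of these data known. Per-sample values are given for Cd79a, Cd79b, Pax5, Ebf1, the members with the largest called changes (8 each way in Trp53+/+ B cells, 5 each way in Trp53+/+ non-B cells) and the 3 with the smallest adjusted p for each kind of difference, and from other lists at most 5 called genes by size of change. Per-sample values of Cd22, Bank1, Fcer2a, Lyn and Cd40 in B cells were added after they had been seen. As a check of pairing, deviations from group means were correlated between mock and irradiated samples. Same-numbered Trp53+/+ non-B pairs gave 0.155 to 0.33 in all 4. Differently numbered ones gave -0.383 to 0.325, a range that overlapped the former. In Trp53+/+ B cells the same numbers gave 0.01 to 0.091 and different numbers -0.119 to 0.12. Fits were also run with the replicate number as a block. The labels do not say what a number marks. The start-site correction replaced RPKM by -(2000/N) ln(1 - RPKM × N/2000), with N the estimated depth of the library (4.625 to 10.91 M reads), and it was chosen after the data were seen, as was a crossed pairing of Trp53-/- non-B samples. A few genes of the wider lists are not reported here. Promoter sequences are from RefSeq GRCm38.p6, and no mm9 coordinates were used.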

Additional observations from a re-analysis of the deposited data

Results flagged for a closer look

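A response that differed between genotypes in B cells by the test of the difference was found for 5 members (14.7%, against 18.8% of all genes): Cd180 (-0.78 on the log2 scale, Trp53+/+ minus Trp53-/-), Vpreb3 (-0.64), Cr2 (-0.57), Spib (0.35) and Cd40 (-0.33). Those of Vpreb3, Spib and Cd40 were lost in most fits that left out a library. A response that differed between B and non-B cells of Trp53+/+ mice was found for 4 members (11.8%, against 28.0% of all genes): Dok3 (-0.81, B minus non-B), Cd180 (-0.63), Btk (-0.43) and Lyn (-0.42). That of Lyn was lost in most fits that left out a library.

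Among 136 groups of 4 samples, 4 held a sample whose gap to the nearest other exceeded Dixon's critical value of 0.829 times the range, and chance alone gives about 1 in 20. Btk in mock Trp53+/+ B cells was 50.7 RPKM in replicate 1 with the nearest other at 56.2 RPKM. The other 3 all came from replicate 1 of mock Trp53+/+ non-B cells, in which Bank1 was 25.1 RPKM (nearest other 38.4), Cr2 28.8 RPKM (nearest other 41.2) and Pou2af1 42.7 RPKM (nearest other 54.9).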

How the results depend on the processing

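Counts of called members are given under each alternative that moved them by over 1.5 times. In Trp53+/+ B cells the 9 became 19 with no threshold on the fold and 2 with a threshold of 1. In Trp53-/- B cells the 5 became 16 and 2 in the same order, and 9 with the start-site correction at either depth. The 5 genotype differences in B cells became 1 at an adjusted p under 0.01, and 3 with no filter on low values, with median-ratio scaling, with the log2 mean receptor RPKM as covariate or with a replicate block. In Trp53+/+ non-B cells the 3 became 5 with no fold threshold, 1 with a threshold of 1, 1 at an adjusted p under 0.01, 5 with the start-site correction at either depth, and 0 with the receptor covariate or without the libraries with many receptor reads. The genotype differences in non-B cells went from 0 to 1 with the start-site correction at either depth, and the 4 differences between cell types to 1 at an adjusted p under 0.01 and 11 without those libraries. In that fit the differences of Cd40 (-0.35), Pou2af1 (-0.56) and Pou2f2 (-0.49) had the opposite sign to the main fit, in which none of these genes was called. The median non-B share of 44.3% moved to 35.9% with the start-site correction. Except where an alternative removes libraries or changes a threshold, the cause was not tested.

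Leaving out 1 library at a time gave 7 to 10 members in Trp53+/+ B cells, 5 to 7 in Trp53-/- B cells, 1 to 5 genotype differences in B cells, 2 to 10 members in Trp53+/+ non-B cells, 0 to 0 in Trp53-/- non-B cells, 0 to 1 genotype differences in non-B cells, 0 to 0 in each mock comparison of genotypes, 33 to 34 and 25 to 28 for B against non-B cells in mock and after IR, and 3 to 6 cell type differences. A Trp53-/- group reduced to 1 sample was assumed to vary like the others. The 1 genotype difference in non-B cells appeared without irradiated Trp53-/- replicate 2, mock Trp53+/+ replicate 1 or irradiated Trp53+/+ replicate 2 or 4.

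With the replicate block, besides the 5 genotype differences that became 3, genes called in Trp53-/- non-B cells went from 62 to 17 and cell type differences from 4 to 5 members, and no other member count changed. Crossing the numbers of irradiated Trp53-/- non-B samples, whose same-numbered deviations correlated at -0.262, gave 152 such genes, 7 members in Trp53+/+ non-B cells and 3 genotype differences. With 2 samples per group the crossed numbers correlate at 0.262 by construction, and the crossing was picked from these same values. Its counts therefore cannot show which samples belong together.

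Scaling moved the balance of calls over all genes: genotype differences in B cells went from 43.4% to 59.1% higher with median-ratio scaling, and B against non-B calls from 30.0% to 50.7% (mock) and from 43.0% to 55.3% (IR) higher with quantile normalization, under which 32 and 25 members were higher. In Trp53-/- non-B cells 62 genes became 0 at an adjusted p under 0.01. If at most 1 read per start position was kept, depth limits how far high members can be read, and 2 Trp53-/- samples per group limit every comparison with that genotype.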

Other observations

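Genes that mark subsets and later stages of B cells moved alongside the identity genes. Of 11 genes of marginal zone and B1 cells 2 rose and 5 fell in Trp53+/+ B cells, against 12.5% and 12.2% of all genes. Their summed RPKM went from 291 to 375 in mock to 225 to 244 after IR. S1pr3, a sphingosine-1-phosphate receptor of marginal zone B cells, fell from 26.5 to 3.48 RPKM on average (log2 fold change -2.75), followed by Cd1d1 (the lipid-presenting molecule, -1.34), Plac8 (-1.22) and Myof (-1.14), while Bhlhe41, a transcription factor of B1 cells, rose from 16.5 to 46.6 RPKM (1.47). In Trp53-/- B cells 0 rose and 4 fell, against 13.1% and 11.2% of all genes. Bhlhe41 was among the falls (-1.17, with Asb2 -0.80, Spn -0.77 and Plac8 -0.66). In Trp53+/+ non-B cells 2 rose and 2 fell (S1pr3 -1.59, Bhlhe41 1.14, Ctla4 1.05 and Dtx1 -0.97), against 5.74% and 4.11% of all genes. The paper describes this fraction as enriched for T cells, so Ctla4 need not come from B cells there.

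Of 6 germinal centre genes tested 2 rose and 3 fell in Trp53+/+ B cells, against 12.5% and 12.2% of all genes. The risers do not mark the germinal centre alone: Fas, the death receptor, rose by 2.75 and Mybl1, a Myb-family factor, by 2.49, while Gcsam (-1.18), S1pr2 (-1.12) and Rgs13 (-1.11) fell. Without p53 only Fas was called among them (1.46), where 13.1% of all genes rose and 11.2% fell. In Trp53+/+ non-B cells 3 rose and 0 fell, against 5.74% and 4.11% of all genes, Mybl1 (2.51) and Fas (1.38) being among the rises. Of 8 plasma cell genes Sdc1 (CD138) rose with p53 (0.65) and fell without it (-1.49, with Mzb1 -0.63), and 0 were called in either genotype of non-B cells. These counts are to be read against the same shares of all genes, and 0.442% in Trp53-/- non-B cells.

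Among markers of other cells in Trp53+/+ B cells, 1 of 15 T cell genes rose and 2 fell (Cd2, -1.58, and Cd8a, -0.65), against 12.5% and 12.2% of all genes. Of 14 macrophage and monocyte genes 1 rose (Ly6c1, 1.51) and 2 fell (Fcgr1, -1.49, and Emr1, -0.93), and 1 of 7 dendritic cell genes rose and 2 fell. Of 8 NK cell, 7 neutrophil and 5 megakaryocyte genes 0 were called there. In Trp53-/- B cells, where 13.1% of all genes rose and 11.2% fell, Cd2 (-0.97) was the T cell gene called. Of 10 erythroid markers 0 were called in either fraction of that genotype, with 0.442% of all genes called in its non-B cells. In Trp53+/+ non-B cells Cd8a (-0.61), Cd8b1 (-0.58) and Cd14 (1.77, a monocyte receptor) were called outside the erythroid list, in which Car1 (-5.61) and Klf1 (-4.18) fell furthest. Among all genes 5.74% rose and 4.11% fell in that comparison.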
